A study of Mus musculus with 2 samples.

Results

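A set of 10 genes of macrophage lipid uptake and handling were followed through the immune cells of a bone tumor model. The genes were Lpl, Cd36, Fabp4, Fabp5, Apoe, Abca1, Plin2, Lipa, Trem2 and Gpnmb, chosen by name from the 32285 genes of the deposited features. They were chosen with earlier results of these data known, so their counts past 2-fold are descriptions. The tumors were grown under the skin of nude mice, which lack a thymus and so most T cells, from the human osteosarcoma line 143B. The mice were female and 4 weeks old when the cells were injected. The control IgG group received 10 mg/kg of a human IgG1 isotype control and the anti-CD3L1 group an antibody against CD3L1, every 3 days and 4 times in all. Immune cells were pulled from the tumors with magnetic beads through their surface protein CD45, and UMIs were counted for mouse genes. A UMI, or unique molecular identifier, is the tag of 1 captured RNA molecule. Each group gave 1 library of 10x Genomics droplets, pooled from 3 tumors, and the files do not tie cells to tumors. With 1 library on each side, differences between the groups lack any replicate check and were not tested across samples. Every interval given is at 95% and covers counting error only.

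Macrophages take up lipid from lipoproteins, dying cells and debris. Lipoprotein lipase, the product of Lpl, frees fatty acids from triglycerides outside the cell, and the scavenger receptor Cd36 takes up fatty acids and oxidized lipoproteins. Fabp4 and Fabp5 carry fatty acids inside the cell, Plin2 coats lipid droplets, and Lipa is the acid lipase of the lysosome. Apoe is the protein part of lipoproteins that macrophages release, and Abca1 exports cholesterol onto such acceptors. Trem2 is a receptor that senses lipids on cells and debris, and Gpnmb is a membrane glycoprotein of endosomes and lysosomes. Trem2 and Gpnmb are known from lipid-laden macrophages of fat tissue, vessel walls and tumors.

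Barcodes were kept as cells with at least 500 UMIs, more than 200 and fewer than 6000 genes and under 5% mitochondrial UMIs. This left 8557 cells of the control IgG library, with a median of 5526 UMIs, and 11269 cells of the anti-CD3L1 library, with a median of 8267. The libraries shared 26 of the kept barcodes. Cells were assigned to classes by lists of 8 marker genes each, and none of the 10 lipid genes was a marker. Mononuclear phagocytes (Csf1r, Adgre1, Fcgr1 and others) were divided by complement genes C1qa, C1qb and C1qc into C1q-high macrophage-like cells, by Ly6c2, Vcan, Ccr2 and Chil3 into monocyte-like cells, and the rest were low in both and are called double-low mononuclear cells. C1q-high macrophage-like cells numbered 394 of the control IgG cells, or 4.60%, and 3569 of the anti-CD3L1 cells, or 31.7%. Monocyte-like cells numbered 1148 and 2891, and double-low cells 701 and 1506. Neutrophil-like cells made up 68.2% of the control IgG cells but 5.23% of the anti-CD3L1 cells. RNA free in the droplets differed too. Barcodes of 10 to 100 UMIs held 27872 CPM (UMIs of a gene per 1000000 UMIs) of the neutrophil gene S100a8 under control IgG and 516 CPM under anti-CD3L1. Of the lipid genes, these near-empty barcodes held more Apoe in the anti-CD3L1 library, at 8266 CPM against 2899 CPM, and more Lpl, at 149 CPM against 22.2 CPM. NK-like cells, which should lack most of these genes, are given beside the phagocytes as a measure of such free RNA. The CPM of near-empty barcodes gives the make-up of free RNA, not its amount in a cell. For S100a8, NK-like cells held 792 CPM under control IgG and 15.2 CPM under anti-CD3L1, far below the near-empty barcodes.

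All 10 genes are protein-coding and lie apart in the genome, except that Fabp5 (chr3:10012548-10016607) and Fabp4 (chr3:10204088-10208576) are of the same family and only 187481 bases apart. The others are Lpl (chr8:68880491-68907448), Cd36 (chr5:17781690-17888801), Apoe (chr7:19696109-19699188), Abca1 (chr4:53030787-53159895), Plin2 (chr4:86648386-86670060), Lipa (chr19:34492318-34527474), Trem2 (chr17:48346401-48354147) and Gpnmb (chr6:49036546-49070929). These positions are those of mouse build GRCm38, matched by Ensembl identifier. RefSeq promoters of the same build, 250 bases before to 50 after a transcription start, were found for 7 of the 10 genes, Cd36, Apoe, Abca1, Plin2, Lipa, Trem2 and Gpnmb. They were searched on both strands for 3 motifs of factors known in macrophage lipid handling. These were the E-box CACGTG, bound by factors of the MITF and TFEB family, the AP-1 site TGACTCA, and the nuclear receptor hexamer AGGTCA, which is part of the sites of PPAR and LXR factors. Of the 7 genes, Cd36 and Gpnmb were higher past 2-fold in the anti-CD3L1 library in all 3 phagocyte classes below. Apoe and Lipa were so in monocyte-like and double-low cells, and Trem2 in C1q-high cells alone. Abca1 and Plin2 were within 2-fold in the 3 classes, Abca1 lower and Plin2 higher in each. The promoters of Gpnmb, Trem2, Abca1 and Plin2 are printed 5′ to 3′ on the strand of the gene, with motif letters in capitals.
Gpnmb, chr6:49036268-49036567, plus strand: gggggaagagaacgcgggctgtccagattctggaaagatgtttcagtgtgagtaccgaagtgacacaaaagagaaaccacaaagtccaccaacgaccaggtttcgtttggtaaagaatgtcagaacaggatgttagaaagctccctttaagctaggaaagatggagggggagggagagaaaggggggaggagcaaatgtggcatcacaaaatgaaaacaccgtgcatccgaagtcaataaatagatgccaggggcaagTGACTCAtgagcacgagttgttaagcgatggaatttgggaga
Trem2, chr17:48346151-48346450, plus strand: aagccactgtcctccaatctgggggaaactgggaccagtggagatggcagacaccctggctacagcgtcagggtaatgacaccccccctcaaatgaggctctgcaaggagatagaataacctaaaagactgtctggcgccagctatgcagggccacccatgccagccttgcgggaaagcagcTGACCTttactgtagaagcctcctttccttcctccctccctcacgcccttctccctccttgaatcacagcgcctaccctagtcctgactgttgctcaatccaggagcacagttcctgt
Abca1, chr4:53159846-53160145, minus strand: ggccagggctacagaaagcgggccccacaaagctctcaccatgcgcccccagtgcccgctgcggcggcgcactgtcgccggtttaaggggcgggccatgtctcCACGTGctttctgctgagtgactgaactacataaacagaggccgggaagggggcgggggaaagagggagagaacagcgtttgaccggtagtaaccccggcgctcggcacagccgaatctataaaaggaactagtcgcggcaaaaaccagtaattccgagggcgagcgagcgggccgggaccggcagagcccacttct
Plin2, chr4:86670010-86670309, minus strand: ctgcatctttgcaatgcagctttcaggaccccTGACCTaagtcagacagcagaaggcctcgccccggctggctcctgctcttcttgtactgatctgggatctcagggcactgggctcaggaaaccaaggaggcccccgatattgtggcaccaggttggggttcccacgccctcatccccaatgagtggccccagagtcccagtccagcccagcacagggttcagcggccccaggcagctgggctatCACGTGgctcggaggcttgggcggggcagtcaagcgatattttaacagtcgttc
The AP-1 letters of Gpnmb stood at 9 to 15 bases after the start and were found in 1 of the 7 genes and in 5.20% of all 32851 promoters of the table. The E-box of Abca1 began 147 bases before the start and that of Plin2 4 bases before it, and 7.15% of all promoters held one. The hexamer was read on the opposite strand, as TGACCT, in Trem2, Plin2 and Cd36, and 16.3% of all promoters held it on either strand. The Cd36 window, not printed, lies inside the gene, 52905 bases from the start of the gene as positioned above. The hexamer and the E-box did not overlap in Plin2. The letters describe these windows only.

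In C1q-high macrophage-like cells, Lpl, Cd36 and both fatty acid carriers were higher in the anti-CD3L1 library. Of the 10 genes, 6 were higher past 2-fold, Lpl, Cd36, Fabp4, Fabp5, Trem2 and Gpnmb, and none was lower past 2-fold. Of all 7562 genes with a mean of at least 10 CPM in this class, 1.81% were higher past 2-fold and 2.1% lower. The median log2 ratio of the 10 genes was 1.33, against 0.03 over all genes. Its 10 leading genes by fold over the other cells held the 3 C1q genes, which the gate itself set, then Ccl8, Folr2 and Pf4, which it did not use, and Apoe and Trem2 of the genes under study.

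**Figure D1:**
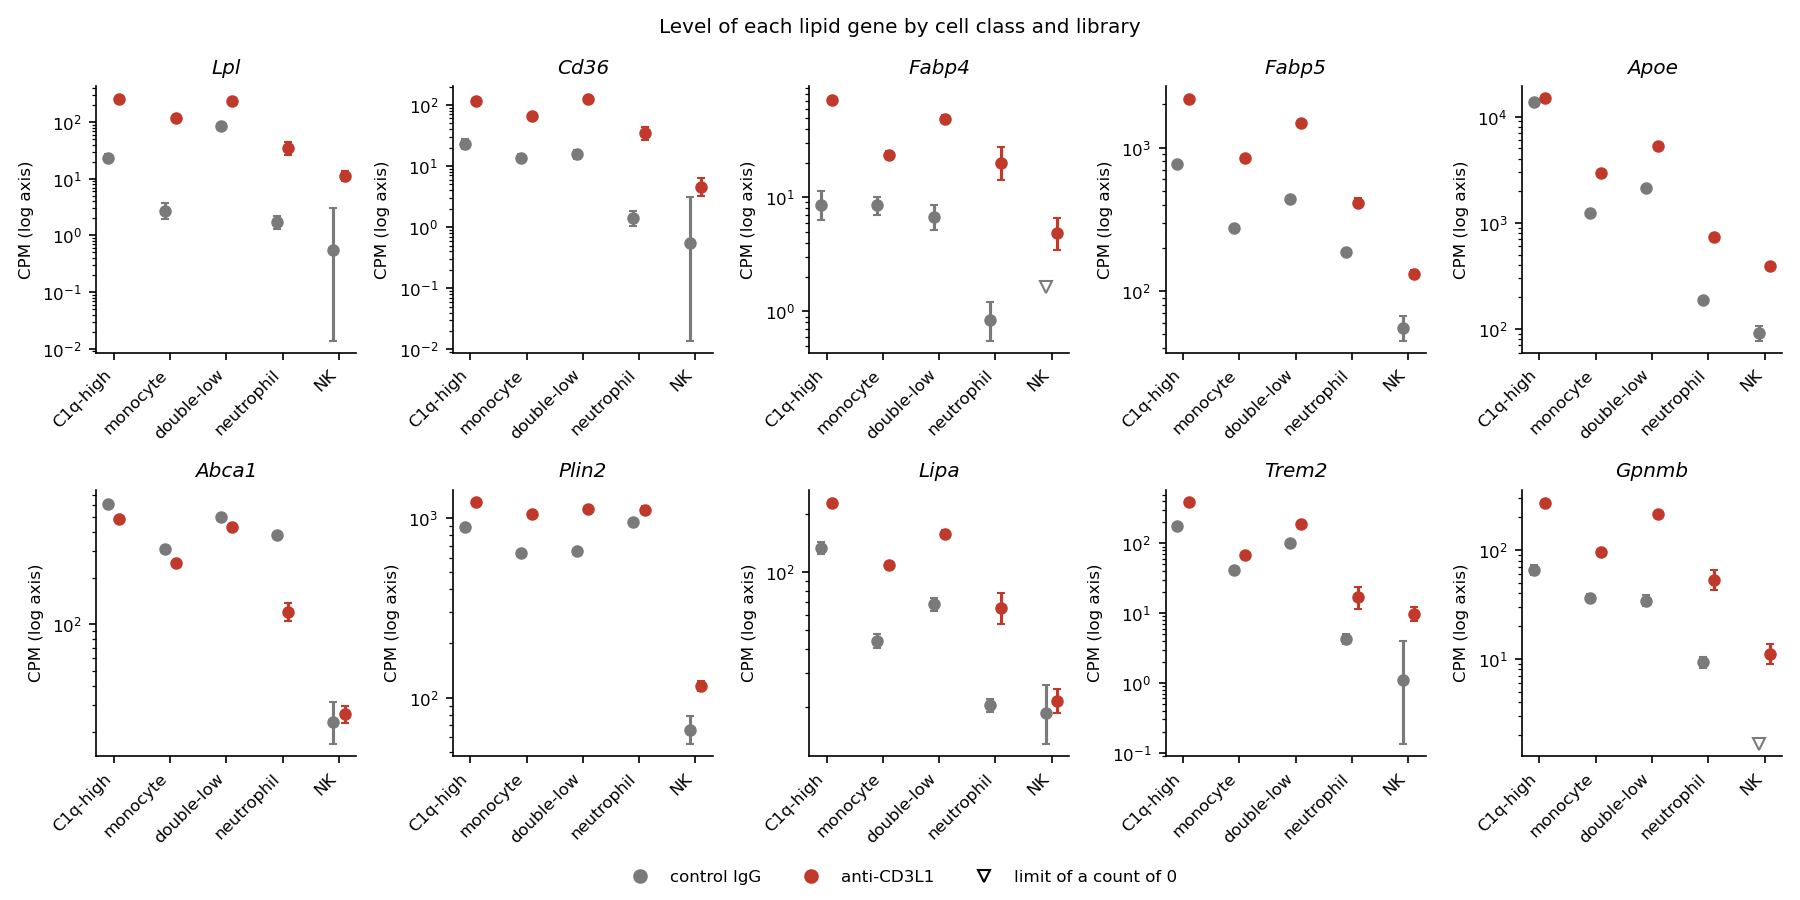
Level of each gene, as CPM of the class (log axis), in C1q-high macrophage-like, monocyte-like, double-low mononuclear, neutrophil-like and NK-like cells of the control IgG (grey) and anti-CD3L1 (red) libraries. Bars are exact Poisson 95% intervals and open triangles give the limit that a count of 0 allows. Abca1 is the gene whose level is lower in the anti-CD3L1 library in all 3 phagocyte classes.

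Among the uptake genes, Lpl was at 23.4 CPM (interval 19.6 to 27.8) in C1q-high cells under control IgG and at 260 CPM (255 to 265) under anti-CD3L1. This was a difference of 3.47 on the log2 scale (3.23 to 3.73), or 11.1-fold. The control value rested on 133 UMIs in 38 cells, so the median cell held 0 UMIs in both libraries. Cd36 was at 22.9 CPM under control IgG and at 118 CPM under anti-CD3L1, a log2 ratio of 2.36 (2.11 to 2.62).

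Both fatty acid carriers were higher as well. Fabp4, best known from fat cells, was at 8.63 CPM (49 UMIs) and 71.3 CPM (2586 UMIs), a log2 ratio of 3.05 (2.64 to 3.48). Fabp5, the carrier most macrophages use, was at 771 CPM and 2194 CPM (log2 ratio 1.51, 1.46 to 1.55). The median C1q-high cell held 2 UMIs of Fabp5 under control IgG and 7 under anti-CD3L1. Fat cells and vessel cells also use Lpl, Cd36 and Fabp4. The 6 fat cell markers Adipoq, Plin1, Cidec, Lep, Adrb3 and Cidea had 2 UMIs in all in the control C1q-high cells and 21 in the anti-CD3L1 C1q-high cells, or 0.352 and 0.579 CPM. Adipoq, Lep, Adrb3 and Cidea were at 0 in the control cells and Lep in the anti-CD3L1 cells. The 8 endothelial markers were at 75.2 CPM and 68.1 CPM in sum, with Emcn, Egfl7 and Esam at 0 in the control cells and none at 0 in the anti-CD3L1 cells.

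The genes of lipoproteins and cholesterol efflux did not follow the carriers. Apoe was the most even of the genes in C1q-high cells, with 13648 CPM under control IgG and 14853 CPM under anti-CD3L1, a log2 ratio of 0.12 (0.11 to 0.13). Abca1 was lower in the anti-CD3L1 library, at 488 CPM against 609 CPM, a log2 ratio of -0.32 (-0.37 to -0.27). Both differences were larger than the counting error, but below 2-fold.

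Plin2 and Lipa were higher by less than 2-fold, and Trem2 and Gpnmb by more. The droplet coat gene Plin2 was at 885 CPM and 1217 CPM, a log2 ratio of 0.46 (0.42 to 0.50). The lysosomal lipase Lipa was at 133 CPM and 226 CPM, a log2 ratio of 0.76 (0.65 to 0.87). The receptor Trem2 was at 176 CPM and 390 CPM, a log2 ratio of 1.15 (1.05 to 1.24), and Gpnmb at 65.5 CPM and 273 CPM, a log2 ratio of 2.06 (1.91 to 2.21). The 8 neutrophil markers moved the other way in the same C1q-high cells, from 345 CPM in sum to 107 CPM, and S100a8 from 1374 CPM to 58.5 CPM, with no neutrophil marker at 0 in either library. The 4 monocyte markers went the same way as the lipid genes, from 194.6 CPM to 403 CPM in sum, as did the lists of innate lymphoid cells (152 CPM to 293 CPM) and type 1 dendritic cells (402 CPM to 557 CPM, with Clec9a at 0 in the control cells). Their part in these differences was not tested. With the free RNA estimated from each library's NK-like cells taken off, the 6 genes were still higher past 2-fold, from a log2 ratio of 1.12 for Trem2 to 3.44 for Lpl. Near-empty barcodes held more of the 6 genes than NK-like cells, and differed between the libraries too. Lpl was at 22.2 and 149 CPM there, Cd36 at 9.12 and 54.3, and Fabp4 at 6.27 and 60.9. Fabp5 was at 595 and 1486 CPM, Trem2 at 67.6 and 241, and Gpnmb at 20.5 and 122. These are shares within free RNA and not amounts in a cell. They were not subtracted, and the part of free RNA was not tested.

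**Figure D2:**
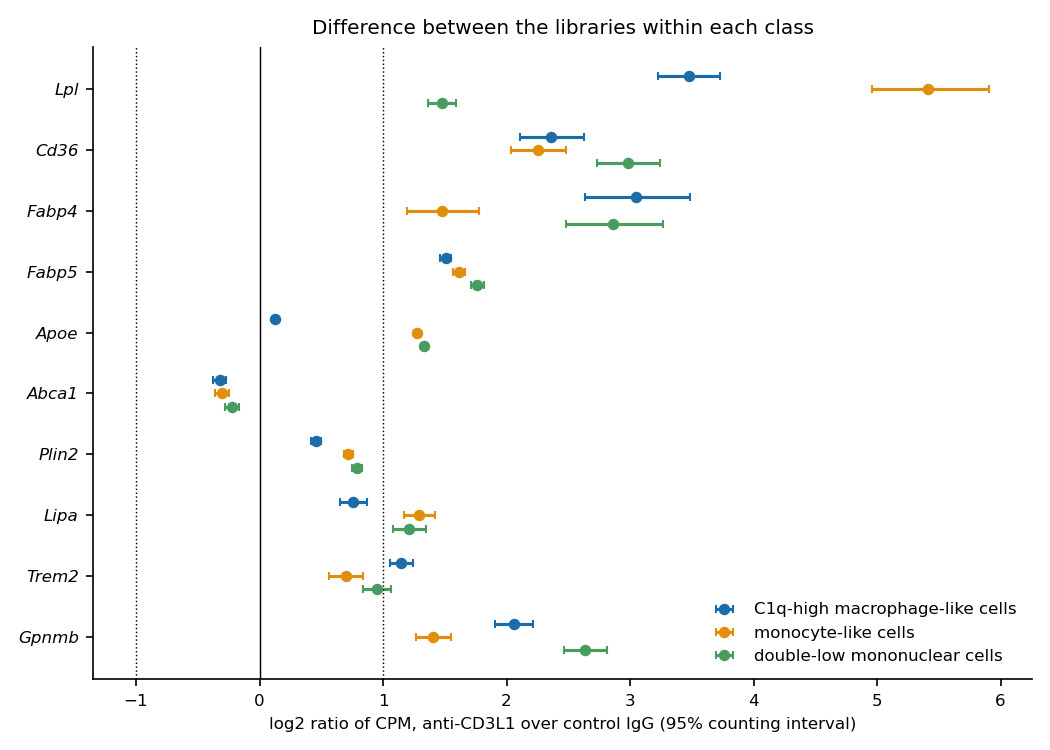
Log2 ratio of CPM, anti-CD3L1 over control IgG, for each gene in C1q-high macrophage-like (blue), monocyte-like (orange) and double-low mononuclear (green) cells, with exact binomial 95% counting intervals; dotted lines mark 2-fold. Lpl spans the widest range, from 1.48 in double-low to 5.41 in monocyte-like cells, and Apoe is near 0 in C1q-high cells alone.

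Monocyte-like cells showed the same direction with other members past 2-fold. Here 7 of the 10 genes were higher past 2-fold in the anti-CD3L1 library, Lpl, Cd36, Fabp4, Fabp5, Apoe, Lipa and Gpnmb, and none was lower, against 3.71% of all 7190 genes tested in this class higher and 1.79% lower. Of these 7, only Cd36 (64.8 CPM) stood above the near-empty barcodes of the anti-CD3L1 library (54.3 CPM). Lpl (117 CPM against 149 CPM), Fabp4 (23.6 against 60.9) and Fabp5 (842 against 1486) were not above them. Nor were Apoe (2967 against 8266), Lipa (108 against 109) and Gpnmb (96.6 against 122). The near-empty CPM are shares within free RNA, so they do not tell how much of a class level was free RNA. They were not subtracted. The median log2 ratio of the 10 genes was 1.35. The median of all genes was itself shifted, by 0.18, and with that shift subtracted the same count of 7 genes remained past 2-fold. Lpl was close to absent in control monocyte-like cells, with 39 UMIs in 11 of 1148 cells (2.75 CPM), and stood at 117 CPM in the anti-CD3L1 cells, in 603 of 2891 cells. This log2 ratio of 5.41 (4.96 to 5.91) was the largest for any of the 10 genes in the 3 phagocyte classes. Outside these classes Lpl differed as well, at 1.69 CPM and 34.8 CPM in neutrophil-like cells (4.36, 3.82 to 4.90). In NK-like cells Lpl was at 0.549 CPM (1 UMI) and 11.4 CPM (4.37, 1.86 to 9.69).

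Apoe, almost even in C1q-high cells, was at 1227 CPM and 2967 CPM in monocyte-like cells, a log2 ratio of 1.27 (1.25 to 1.30). NK-like cells held 91.1 CPM and 388 CPM of Apoe, and with their mean UMIs subtracted the log2 ratio of monocyte-like cells was 1.14. The 3 C1q genes were higher in these cells too, at 22.8 CPM and 97.7 CPM in sum with none at 0, and their part in the Apoe difference was not tested. Lipa was at 44.1 CPM and 108 CPM (1.29, 1.17 to 1.42). Trem2 stayed below 2-fold, at 41.9 CPM and 68.0 CPM (0.70, 0.56 to 0.84), and its ratio was 0.47 with NK-like UMIs subtracted. Abca1 was again lower, at 308 CPM and 250 CPM (-0.30, -0.36 to -0.24). Cd36 was at 13.6 CPM and 64.8 CPM, Fabp5 at 274 CPM and 842 CPM, and Gpnmb at 36.4 CPM and 96.6 CPM, with log2 ratios of 2.26, 1.62 and 1.41. Fabp4 was at 8.48 CPM and 23.6 CPM (1.48), and Plin2 at 639 CPM and 1053 CPM (0.72). The summed neutrophil markers were at 389 CPM and 220 CPM in monocyte-like cells and at 440 CPM and 171 CPM in double-low cells, with none at 0, and their part in the differences was not tested.

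Double-low mononuclear cells, whose leading genes were Sdc1, Pde4d, Ptges, Nrp2 and Rai14 and which were given no type name, had 7 of the 10 genes higher past 2-fold and none lower. Of all 7488 genes tested in that class, 4.26% were higher past 2-fold and 2.88% lower. The 7 were those of the monocyte-like cells. Gpnmb was at 34.3 CPM under control IgG and 213 CPM under anti-CD3L1 (2.64, 2.47 to 2.81), and Cd36 at 15.5 CPM and 123 CPM (2.98, 2.73 to 3.24). Fabp4 was at 6.71 CPM and 48.7 CPM (2.86), Fabp5 at 435 CPM and 1480 CPM (1.76), Apoe at 2114 CPM and 5318 CPM (1.33) and Lipa at 68.1 CPM and 158 CPM (1.21). Of the 7, Fabp4, Fabp5 and Apoe were not above the near-empty barcodes of the anti-CD3L1 library, at 60.9, 1486 and 8266 CPM. Trem2 was just inside 2-fold, at 99.6 CPM and 192 CPM (0.95, 0.84 to 1.06), and Abca1 was again lower, at 504 CPM and 431 CPM (-0.23, -0.28 to -0.17). Lpl differed least in this class, at 84.1 CPM and 234 CPM (1.48, 1.36 to 1.59), and its control level was above that of the other phagocytes.

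The control Lpl of double-low cells came from few cells. Of 701 cells, 70 held a UMI of Lpl, and 24 cells with at least 10 UMIs each held 619 of the 764 UMIs. The 70 cells were deep, with a median of 24480 UMIs against 11973 in the other double-low cells. They were set apart by genes that are background knowledge of osteoclasts, the bone-resorbing relatives of macrophages, named here after their values were seen. Ctsk, the collagen protease of osteoclasts, was at 486 CPM in cells with Lpl and 6.95 CPM in cells without, Atp6v0d2, a subunit of the proton pump, had 244 UMIs and 11 UMIs, and Nfatc1, the regulator of osteoclast formation, was at 391 CPM and 36.5 CPM. Mcm6, part of the helicase of DNA replication (115 CPM and 9.68 CPM), and Stmn1, a regulator of microtubules (239 CPM and 18.3 CPM), were also among their 10 leading genes.

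The other lipid genes were low in these Lpl-holding control cells. Apoe was at 445 CPM in cells with Lpl and 2513 CPM in cells without, a log2 ratio of -2.50 (-2.60 to -2.39). Plin2 was at 117 CPM and 778 CPM (-2.73, -2.93 to -2.53), Abca1 at 179 CPM and 581 CPM (-1.70, -1.87 to -1.53), and Cd36 at 3.99 CPM (7 UMIs) and 18.3 CPM. Fabp5 was higher, on 1082 UMIs in cells with Lpl and 2876 in the more numerous cells without (0.65, 0.55 to 0.76), and the interval for Trem2 held 0 (0.19, -0.05 to 0.42). In the anti-CD3L1 library 532 of 1506 double-low cells held Lpl, and the pattern differed. Cd36 was higher in cells with Lpl (177 CPM against 80.4 CPM; 1.14, 0.99 to 1.29), Gpnmb was higher (0.95, 0.83 to 1.06), and Apoe and Plin2 differed by -0.17 and 0.11. Ctsk was still the leading gene of cells with Lpl, at 198 CPM against 15.8 CPM.

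**Figure D3:**
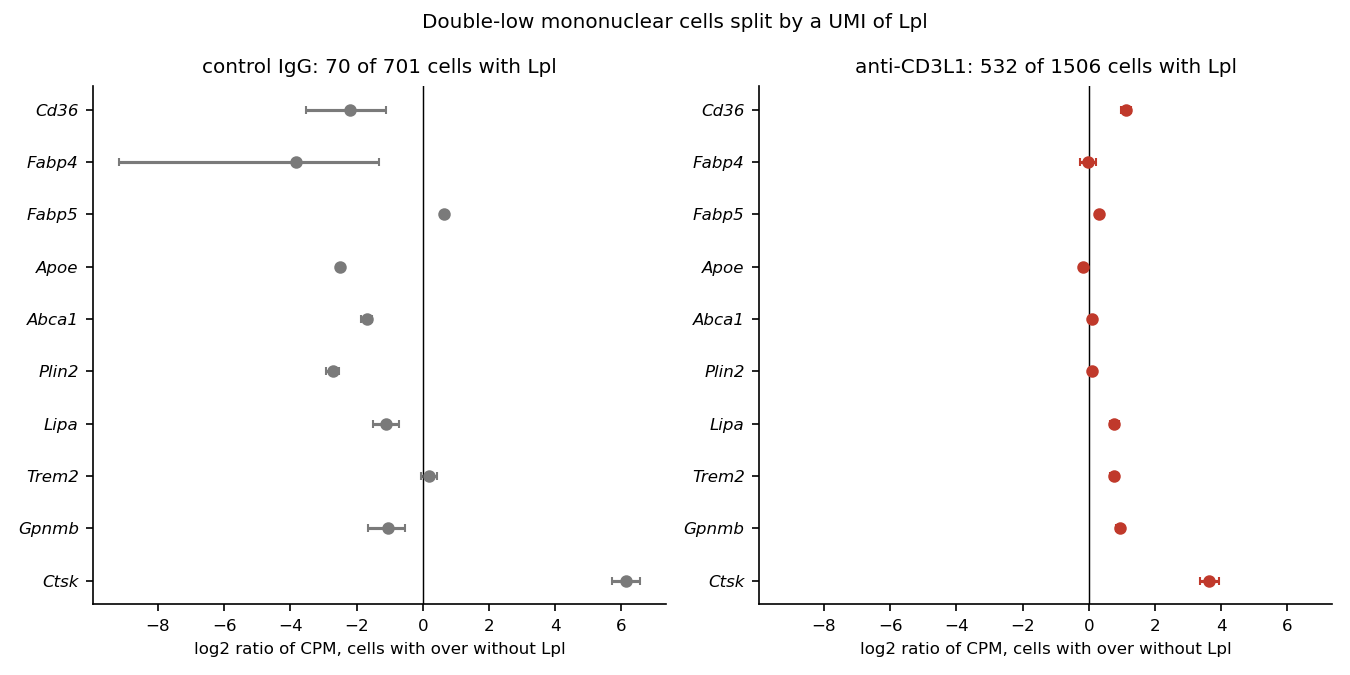
Log2 ratio of CPM in double-low mononuclear cells with a UMI of Lpl over those without, for the other 9 genes and Ctsk, in the control IgG library (left) and the anti-CD3L1 library (right), with exact binomial 95% counting intervals. In the control IgG library 7 of the 9 genes are at or below -1.06, and in the anti-CD3L1 library all 9 lie between -0.17 and 1.14.

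Over all mononuclear phagocytes joined, 2243 control and 7966 anti-CD3L1 cells, 8 of the 10 genes were higher past 2-fold and none lower, against 3.07% of all 7402 genes tested higher and 1.96% lower. Apoe was at 3944 CPM and 9359 CPM (1.25), and Trem2 at 86.4 CPM and 251 CPM (1.54). The joined cells also held a larger share of C1q-high cells in the anti-CD3L1 library, 3569 of 7966 phagocytes against 394 of 2243. The 2 genes that stayed within 2-fold were Abca1 (-0.10) and Plin2 (0.73). With only cells of 5000 to 20000 UMIs the log2 ratio of Lpl was 4.54 in place of 2.69. Control cells of more than 20000 UMIs held 671 of the 764 Lpl UMIs of the double-low class.

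Within each library, C1q-high cells stood above monocyte-like cells for most of the genes. In the control IgG library 5 of the 9 genes with a mean of at least 10 CPM were higher past 2-fold in C1q-high cells, Lpl, Fabp5, Apoe, Lipa and Trem2, and none was lower. Of all 7252 genes tested, 8.2% were higher past 2-fold in C1q-high cells and 4.18% lower. The 10th gene, Fabp4, was at 8.63 CPM in C1q-high and 8.48 CPM in monocyte-like cells (0.03, -0.48 to 0.52). In the anti-CD3L1 library 7 of 10 genes were higher past 2-fold in C1q-high cells, Fabp4 and Gpnmb in addition to those 5, and none was lower, against 2.79% of all 7480 genes higher and 2.46% lower. The class difference of Apoe was 3.48 (3.45 to 3.50) under control IgG and 2.32 (2.31 to 2.34) under anti-CD3L1. That of Fabp4 was 1.59 (1.46 to 1.73) in the anti-CD3L1 library, and that of Trem2 was 2.07 (1.92 to 2.22) and 2.52 (2.44 to 2.60). Plin2 separated the classes least among genes past the level filter, with 0.47 and 0.21. Abca1 lay next to the 2-fold line in both libraries, at 0.98 and 0.96.

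The order of the classes by level was the same in both libraries for some genes and turned for others. Apoe, Trem2, Lipa and Abca1 were highest in C1q-high cells and second in double-low cells in both libraries, and the intervals of these 2 classes were apart. Lpl turned, with double-low cells (84.1 CPM) above C1q-high cells (23.4 CPM) under control IgG and C1q-high cells (260 CPM) above double-low cells (234 CPM) under anti-CD3L1. Of Cd36 in the anti-CD3L1 library, double-low cells (123 CPM, 117 to 129) and C1q-high cells (118 CPM, 114 to 121) did not differ beyond their intervals. Of Gpnmb in the control IgG library, monocyte-like (36.4 CPM) and double-low cells (34.3 CPM) did not either, nor did the 3 phagocyte classes for control Fabp4, between 6.71 and 8.63 CPM. Mature dendritic-like cells, 182 of the anti-CD3L1 library, held the highest Fabp5 of all classes there, at 2695 CPM (2623 to 2768) against 2194 CPM in C1q-high cells. The same dendritic cells had 7.05 CPM of Gpnmb and 11.1 CPM of Trem2, near the NK-like levels of 11.1 and 9.76 CPM.

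Neutrophil-like cells used Plin2 and, in the control IgG library, Abca1. Plin2 was at 941 CPM in control and 1108 CPM in anti-CD3L1 neutrophil-like cells, and in the control IgG library that was the highest of the 5 classes with at least 50 cells. Its log2 ratio of 0.24 (0.17 to 0.30) turns to -0.33 once the median shift of all genes in this class, 0.57, is subtracted. Abca1 was at 379 CPM (12763 UMIs) in control neutrophil-like cells and 121 CPM (222 UMIs) in the 589 anti-CD3L1 ones. The log2 ratio was -1.65 (-1.85 to -1.46), and NK-like cells held 23.1 and 26.0 CPM. Neutrophil-like cells of the libraries also differed in depth, with medians of 4518 and 2182 UMIs. The other 8 genes had at most 187 CPM in control neutrophil-like cells, and in both libraries their levels there were below those of the near-empty barcodes. For Lpl these were 1.69 CPM in control neutrophil-like cells against 22.2 CPM in control near-empty barcodes. Between the libraries, Lpl, Cd36 and Fabp4 differed by 4.36, 4.62 and 4.60 in neutrophil-like cells, on 57, 47 and 28 control UMIs.

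Shares of cells with a UMI depend on depth, so each cell was thinned at random to 1000 UMIs. The share of C1q-high cells with Lpl was then 1.53% (exact binomial interval 0.564 to 3.30%) under control IgG and 16.2% (15.0 to 17.5%) under anti-CD3L1. Before thinning the shares were 9.64% and 47.0%. NK-like cells had 0 of 148 cells with Lpl in the control IgG library, which allows up to 2.03%, and 0.443% of 902 in the anti-CD3L1 library. At this depth the control share of 1.53% could not be told from that limit. On all UMIs the control levels of these 2 classes were apart, with Lpl at 23.4 CPM (19.6 to 27.8) in C1q-high and 0.549 CPM (0.0139 to 3.06) in NK-like cells. Near-empty barcodes of the control IgG library held 22.2 CPM of Lpl, inside that C1q-high interval. Thinning left out 2 control and 43 anti-CD3L1 C1q-high cells and 0 and 4 NK-like cells, and the median depths of the NK-like cells were 11184.5 and 8678.5 UMIs, against 14129.5 and 9866 in C1q-high cells.

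The same comparison held for the other uptake and carrier genes. The thinned shares of C1q-high cells were 1.53% and 8.59% for Cd36, 0.510% and 5.13% for Fabp4, and 27.3% and 53.7% for Fabp5. Before thinning they were 10.9% and 35.0%, 6.09% and 19.5%, and 66.5% and 84.6%. The thinned control shares of Cd36 and Fabp4 were also under the limit of 0 of 148 NK-like cells, but on all UMIs both genes were above the NK-like level, at 22.9 CPM (19.1 to 27.2) against 0.549 CPM (0.0139 to 3.06) for Cd36 and 8.63 CPM (6.38 to 11.4) against 0 CPM for Fabp4, which allows up to 1.65 CPM. Control near-empty barcodes held 9.12 CPM of Cd36 and 6.27 CPM of Fabp4. Gpnmb was in 3.83% (2.16 to 6.23%) and 16.2% (15.0 to 17.5%) of thinned C1q-high cells and Trem2 in 15.6% and 27.5%, against at most 1.11% of NK-like cells for either gene. Apoe was in 94.4% and 95.2% of thinned C1q-high cells, and in 42.5% and 70.1% of thinned monocyte-like cells. Of NK-like cells 0.676% and 17.6% had Apoe. Abca1 was the gene found in fewer C1q-high cells of the anti-CD3L1 library, 36.4% (34.8 to 38.0%) against 43.1% (38.2 to 48.2%). These intervals nearly met, rest on a random thinning, and count cells of 1 library per group, which are not replicates. Plin2 was in 49.2% and 63.3% of thinned C1q-high cells and Lipa in 11.5% and 17.6%. Before thinning, the shares of C1q-high cells were 17.3% and 41.4% for Gpnmb, 61.7% and 73.8% for Trem2, 99.0% and 99.1% for Apoe, 91.9% and 87.7% for Abca1, 94.9% and 96.4% for Plin2 and 67.0% and 70.2% for Lipa.

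**Figure D4:**
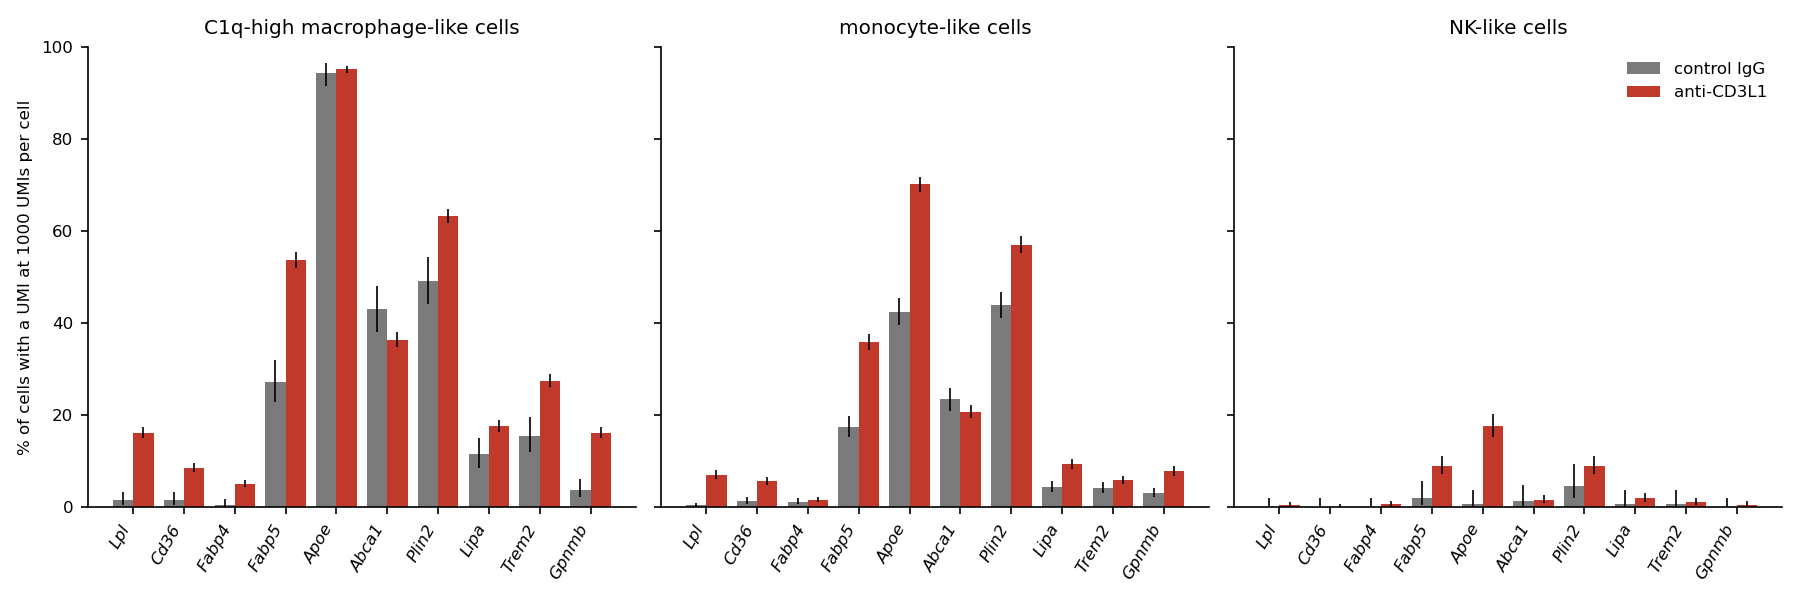
Share of cells with at least 1 UMI of each gene after every cell was thinned to 1000 UMIs, in C1q-high macrophage-like, monocyte-like and NK-like cells of the control IgG (grey) and anti-CD3L1 (red) libraries, with exact binomial 95% intervals. Fabp5, Lpl and Gpnmb are in more C1q-high cells of the anti-CD3L1 library, Apoe is in about the same share of C1q-high cells, and NK-like cells are the measure of free RNA.

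Cells that held several of the genes at a time were more frequent in the anti-CD3L1 library. Of thinned C1q-high cells, 45.2% (40.2 to 50.2%) of control and 71.2% (69.7 to 72.7%) of anti-CD3L1 cells held UMIs of at least 3 of the 10 genes. At least 5 genes were found in 3.57% (1.97 to 5.92%) and 22.6% (21.2 to 24.0%). For monocyte-like cells the shares with at least 3 were 15.8% and 39.0%, and for NK-like cells 0% of 148, which allows up to 2.03%, and 1.77% of 902.

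The genes did not all go together when C1q-high cells were split by a UMI of 1 of them. C1q-high cells with a UMI of Gpnmb, 68 of 394 in the control IgG library, held 2153 CPM of Fabp5 against 469 CPM in the others (2.20, 2.11 to 2.28) and 27.5 CPM of Fabp4 against 4.51 CPM (2.61, 1.74 to 3.50). The same split in the anti-CD3L1 library, 1478 of 3569 cells, gave 3378 CPM against 1152 CPM of Fabp5 (1.55, 1.53 to 1.57) and 105 CPM against 41.5 CPM of Fabp4 (1.34, 1.22 to 1.46). In both libraries the cells with Gpnmb were thus higher in both carriers as a group. Fabp4 had a UMI in 24 of the 394 control cells. For Lpl the ratios of the libraries had opposite signs, the control one on very few Lpl UMIs in the cells with Gpnmb. Control cells with Gpnmb had 2.94 CPM of Lpl against 27.9 CPM in the others (-3.25, -5.54 to -1.67), and anti-CD3L1 cells 290 CPM against 234 CPM (0.31, 0.25 to 0.36). The Lpl of control C1q-high cells rested on 133 UMIs in 38 cells, and 2 of these cells held 31 of the UMIs. Cells of these splits were of similar depth in the control IgG library, with medians of 14387.5 and 14125 UMIs, and of unlike depth in the anti-CD3L1 library, 11011.5 and 8997.

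Trem2 went with Apoe, Gpnmb and both carriers. C1q-high cells with a UMI of Trem2 held 16839 CPM of Apoe in the control IgG library, against 7434 CPM in those without (1.18, 1.15 to 1.21). In the anti-CD3L1 library these were 16668 CPM and 7249 CPM (1.20, 1.19 to 1.21). By the same split Fabp5 differed by 1.35 and 1.57, Fabp4 by 1.19 and 1.85, and Gpnmb by 1.20 and 1.74. Cd36 differed by 0.71 and 0.62, and Lpl by -0.19 (-0.71 to 0.35) and 0.72. Plin2 differed little, by 0.24 and 0.23, Abca1 by 0.48 and 0.29 and Lipa by 0.23 and 0.68. Spp1 differed by 1.74 and 1.31, and C1qa, a gene of the gate itself, by 0.38 and 0.60. The part of the C1q level in this split was not tested. Cells with Trem2 were deeper in both libraries, with medians of 14858 against 12819 UMIs and 10622 against 7146.

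Folr2, a folate receptor that marks a subset of tissue macrophages, divided the C1q-high cells into 134 with and 260 without a UMI in the control IgG library, and 1434 and 2135 in the anti-CD3L1 library. In the anti-CD3L1 library the cells with Folr2 were higher in Fabp4, at 97.8 CPM against 49.4 CPM (0.99, 0.87 to 1.10), in Gpnmb (0.77, 0.71 to 0.83) and in Trem2 (0.75, 0.71 to 0.80). In the control IgG library the same ratios were 1.29 (0.41 to 2.18) for Fabp4, -0.18 (-0.50 to 0.13) for Gpnmb and 0.40 (0.22 to 0.58) for Trem2. Abca1 was at 485 CPM with and 490 CPM without Folr2 in the anti-CD3L1 library (-0.02, -0.06 to 0.03). In the control IgG library it was at 615 and 606 CPM (0.02, -0.08 to 0.12). Of the control cells, Cd36 had 91 UMIs with Folr2 and 39 without, a log2 ratio of CPM of 1.97 (1.42 to 2.55), and of the anti-CD3L1 cells the ratio was 0.51 (0.42 to 0.59). Cells with Folr2 were deeper, with medians of 15221.5 against 13504 UMIs under control IgG and 10907.5 against 9013 under anti-CD3L1. Between the libraries, Lpl differed by 3.76 in cells with Folr2 and 3.25 in cells without, Gpnmb by 2.55 and 1.59, and Trem2 by 1.27 (1.13 to 1.41) and 0.92 (0.80 to 1.05).

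Other genes of lipid metabolism and of lipid-associated macrophages, a list of 88 genes by role, were mostly within 2-fold. In C1q-high cells 68 of them passed the level filter, and 4 were higher past 2-fold (Apoc1, Fabp3, Lgals3 and Spp1) and 2 lower (Ch25h and G0s2), beside 1.81% of all genes higher and 2.1% lower, with a median log2 ratio of 0.16 against 0.03 over all genes. In monocyte-like cells 64 passed, 7 were higher (Abcg1, Cd63, Dgat1, Itgax, Pparg, Spp1 and Tfeb) and 3 lower (Dgat2, G0s2 and Msr1), beside 3.71% higher and 1.79% lower of all genes, with a median of 0.16 against 0.18. The 7 partners of Trem2 and genes of lipid-associated macrophages had the highest median of the roles, 0.83 in C1q-high and 0.68 in monocyte-like cells. Lgals3, Spp1, Cd63 and Itgax of the higher genes above belong to this role and not to lipid metabolism. Spp1, the secreted matrix protein osteopontin, was at 249 CPM and 1166 CPM in C1q-high cells (2.23) and at 202 CPM and 875 CPM in monocyte-like cells (2.11), and Lgals3, which binds galactosides, at 1072 CPM and 2971 CPM in C1q-high cells (1.47). Tyrobp, the adaptor through which Trem2 signals, differed by 0.33 and 0.05.

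By role, 7 of 8 genes of oxidation and 7 of 12 of synthesis passed the level filter in each class, and none of these was past 2-fold. Few of all genes were, at 1.81% higher and 2.1% lower in C1q-high cells. In monocyte-like cells these shares were 3.71% and 1.79%. Hadha (0.35 in C1q-high, -0.01 in monocyte-like cells) and Acadl (-0.07 and 0.04) stand for fatty acid oxidation, and Srebf2 (0.13 and 0.36) and Insig1 (0.27 and 0.56) for sterol synthesis and its control. The lysosomal genes Psap (0.81 and 0.77) and Ctsb (0.48 and 0.68) had positive ratios below 2-fold. Of the other uptake receptors, Msr1, the class A scavenger receptor, was lower, at 287 CPM and 188 CPM in C1q-high cells (-0.61) and at 504 CPM and 235 CPM in monocyte-like cells (-1.10), and Lrp1 differed by 0.12 and 0.01. Pltp, which moves phospholipids between lipoproteins, had -0.62 and -0.26, and the cholesterol exporter Abcg1 -0.02 and 1.04. Of the transport genes, Npc2 had 0.56 and 0.36 and Dbi 0.89 and -0.14, and of the storage genes Hilpda had 0.20 and -0.31 and Plin3 0.44 and 0.27. G0s2, an inhibitor of triglyceride lipolysis that was also among the leading genes of the neutrophil-like class, was lower in both classes, by -3.79 and -1.18. The regulators Mitf (0.27 and -0.30) and Bhlhe40 (0.52 and -0.04) were within 2-fold. Pparg, a nuclear receptor of lipid genes, was at 57.6 and 68.4 CPM in C1q-high cells (0.25, 0.08 to 0.42), and was at 14.6 CPM and 57.5 CPM in monocyte-like cells (1.98, 1.76 to 2.19).

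**Figure D5:**
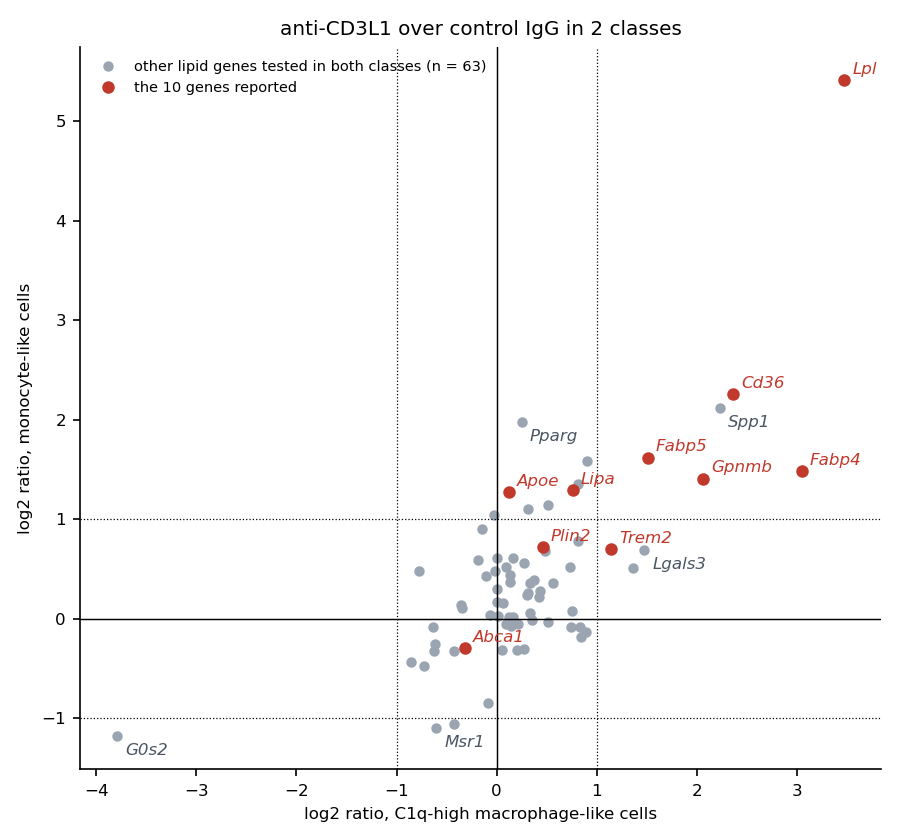
Log2 ratio of CPM, anti-CD3L1 over control IgG, in C1q-high macrophage-like cells (x axis) and monocyte-like cells (y axis) for the 10 genes (red) and the 63 other genes of the lipid list tested in both classes (grey), with dotted lines at 2-fold. Most grey points lie within the dotted lines, while Lpl, Cd36, Fabp4, Fabp5 and Gpnmb lie past 2-fold on both axes, with Spp1 beside Cd36.

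Genes with a pattern like that of each lipid gene were sought over 17 sums of UMIs by class and library, all classes of at least 50 cells, among 6399 genes. These sums share libraries and cell classes, so the correlations of log2(CPM + 1) are descriptions. Apoe was most like Folr2 (Pearson r = 0.977), Trem2 (0.969) and the integrin gene Itga9 (0.966), and Trem2 was most like Folr2 (0.977), Apoe (0.969) and C3ar1 (0.957). Plin2 was most like Cd300lb (0.972), Tnf (0.959) and Tlr2 (0.959), and Abca1 like Adgre1 (0.930), Slc11a1 (0.929) and Fcgr4 (0.917). Cd36 was most like the chemokine Ccl24 (0.922), Slamf8 (0.919) and the lysosomal gene Psap (0.914). Fabp5 was most like Vamp8 (0.909), Cers6 (0.883) and the proton pump subunit Atp6v1f (0.874), and Fabp4 like Flrt2 (0.924), Colec12 (0.882) and Rhou (0.852). Lipa was most like Dtnbp1 (0.923), Uap1l1 (0.922) and Renbp (0.918), Lpl like Uap1l1 (0.854), Dapk1 (0.854) and Slamf8 (0.834), and Gpnmb like Clk3 (0.886), Fnip2 (0.884) and Cd36 (0.869).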

How the data were processed

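The authors deposited raw UMI counts per gene and barcode for each library, made with Cell Ranger 7.1.0, for all 1084690 and 1548857 barcodes (74850604 and 108246719 UMIs) before any cell call. The submitters' processing notes name GRCm39 and Seurat 5.1.0. A table of the authors' own macrophage comparison (fold changes, p-values, shares of cells) was not used. For each class and library, a gene's summed UMIs were scaled to 1000000 UMIs (CPM). Classes were set by the mean log of UMIs per 10000 over markers, the best class leading by 0.1 with 2 markers detected. C1q-high cells had at least 10 C1q UMIs per 10000 and monocyte-like cells at least 5 UMIs of monocyte markers. Near the C1q limit, between 5 and 20, lay 100 of 2243 and 682 of 7966 phagocytes. Many more lay near the monocyte limit, which divides monocyte-like from double-low cells. Of phagocytes under the C1q limit, 691 of 1849 and 1455 of 4397 had monocyte markers between 2.5 and 10 UMIs per 10000. Genes of a mean of at least 10 CPM gave the background shares past 2-fold. Intervals are exact Poisson or binomial at 95%, and a count of 0 is given the limit of 3 counts. PCR copies were collapsed by UMI, and no interval covers variation between tumors. Doublets were kept. Scrublet's automatic threshold called 0 and 108 cells, and the highest 586 and 1016 scores were left out in an alternative. The genes, marker lists and lipid list were chosen with earlier results of these data known. Named genes are the 10 genes, of each lipid role the 2 with the highest level in C1q-high cells plus those past 2-fold the same way in both main classes, and for each gene the 3 most correlated. Other genes were named after their values were seen. All 10 genes were found in GENCODE M21 (GRCm38). Sums, intervals and thinning were tested on simulated data. Tools were Python 3.11.15, scipy 1.17.1, numpy 2.4.6, matplotlib 3.10.9, scanpy 1.11.5 and pandas 2.3.3.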

Additional observations from a re-analysis of the deposited data

How the results depend on the processing

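The counts of genes past 2-fold and the ratios were recomputed under other cell filters, gates, weights, scalings and free RNA subtraction, and under 4 alternatives added after the data were seen. Of 532 recomputed ratios, 526 had the direction of the reported value and 520 its side of 2-fold, and the 6 in the other direction were all of Fabp4 between classes of the control IgG library, down to -0.11 from a reported 0.03. Of 108 recomputed counts 106 stayed within 1.5 times. These include the counts of lower genes, which held no gene in the reported results or under any alternative and so could not differ. Of 80 shares of cells recomputed at a greater thinned depth or with no thinning, 4 stayed within their interval. When the 10% of cells richest in each gene were left out, an alternative added later, the count of higher genes was 4 in monocyte-like cells and 5 in all mononuclear phagocytes, of 7 genes with a value in each. Lpl, Cd36 and Fabp4 had no value there, since no control UMI was left outside the removed cells. Trem2 in C1q-high cells was 0.92 without Folr2-positive cells. Between classes, Abca1 ranged from 0.90 to 1.22 under control IgG and from 0.94 to 1.14 under anti-CD3L1, crossing 2-fold in 4 of 10 alternatives each, Cd36 reached 1.09 and 1.05 with the stricter monocyte gate, and Lipa under anti-CD3L1 was 0.99 with each cell weighted equally. No paired analysis was possible because each group is 1 library. Low control counts of Lpl, Cd36 and Fabp4 in C1q-high cells (133, 130 and 49 UMIs) limit those ratios.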

Other observations

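Classes outside the comparisons are given beside the near-empty barcodes of the anti-CD3L1 library, which held 60.9 CPM of Fabp4, 54.3 CPM of Cd36, 8266 CPM of Apoe and 149 CPM of Lpl. Endothelial-like cells, 7 of the anti-CD3L1 library and 0 of the control IgG library, had 2027 CPM of Fabp4 and 290 CPM of Cd36, both known from capillary endothelium. Fibroblast-like cells, 59 of the anti-CD3L1 library, had 50.3 CPM of Fabp4 (37.1 to 66.7) and 877 CPM of Apoe (818 to 938), neither above the near-empty barcodes. Type 1 dendritic-like cells, 209 of the anti-CD3L1 library, had 63.0 CPM of Cd36 (54.0 to 73.1), against 12.7 CPM (8.08 to 19.1) in 164 type 2 dendritic-like cells, and Lpl was ordered the other way, with 42.4 CPM (35.0 to 50.8) and 111 CPM (96.0 to 127), both below the near-empty barcodes. Control IgG cells of these dendritic classes numbered 12 and 6 and were not compared.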
